A study of Mus musculus with 12 samples.

Results

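Liver genes were compared between mice lacking Ahnak (KO) and wild-type mice (WT) over a regular chow diet and a high-fat diet (HFD), and genes whose KO minus WT difference had the same direction on both diets are described. The genotype difference was averaged over the diets, 6 KO arrays against 6 WT arrays, and a gene was called at a limma adjusted p under 0.05. Of 22180 genes, 1067 (4.81%) were called, and 869 (3.92%) of them had the same sign on chow and on HFD. Of these 869 genes, 251 (1.13%) were higher in KO and 618 (2.79%) were lower. A narrower group of 218 genes (0.983%) also had an unadjusted p under 0.05 on each diet, with every KO array above, or every KO array below, every WT array of that diet. It held 63 genes higher in KO (0.284%) and 155 lower (0.699%), and most genes described in detail come from it. All values are log2 signals, so a difference of 1 is a 2-fold change.

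The 12 male mice were of the C57BL/6 strain, with 1 liver per array and 3 mice in each of 4 groups: WT on chow, KO on chow, WT on HFD and KO on HFD. The groups were weight-matched and kept on their diet for 8 weeks, and the HFD (D12492) supplied 60% fat. The labels give the genotype only as AHNAK KO. No source used here states the age, the deleted part of the gene or any backcross.

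Ahnak is a very large scaffold protein that lies beneath the cell membrane and has been linked to calcium channels, annexins and transforming growth factor signalling. The liver turns amino acid nitrogen into urea, folds and secretes most plasma proteins, detoxifies with cytochrome P450 enzymes and glutathione, and stores fat when a rich diet is fed. When the folding capacity of the endoplasmic reticulum (ER) is exceeded, the unfolded protein response raises the genes of chaperones, disulfide isomerases and the degradation of misfolded proteins.

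Array medians lay between 5.58 and 5.70, and arrays of the same group correlated across genes with r between 0.992 and 0.994. The WT livers on HFD stood apart, with scores of 30.0 to 32.3 on the first principal component (32.2% of the variance) against -18.5 to -3.95 for the other 9 arrays. The mean signal of 10 hepatocyte markers was 13.34 to 13.49 on every array, as the tissue label has it. On chow it was 13.41 to 13.44 in WT and 13.46 to 13.49 in KO. On HFD it was 13.34 to 13.37 in WT and 13.42 to 13.48 in KO. Of these markers 2 were called higher and 0 lower, against 1.45% and 3.36% of all genes, and Cps1, described below, is among them. The Ahnak probe set differed between KO and WT by -0.04 on chow and -0.48 on HFD (average -0.26 ± 0.10 SE, limma adjusted p = 0.18). On HFD alone the difference was called (limma adjusted p = 0.0483), and on chow it was not (0.971). Because the deleted part is not known, these values do not check the labels. In bulk liver, fewer cells of a type and less RNA per cell cannot be told apart.

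The genotype difference was larger on HFD for 797 of the 869 genes and larger on chow for 72. Their median absolute difference was 0.18 on chow and 0.59 on HFD, against 0.09 and 0.14 over all genes. Alone, the HFD comparison called 777 of the 869 (10.5% of all genes were called there) and the chow comparison called 1 (0.00902% of all genes), while 91 were called only once the diets were averaged. On chow 285 of the 869 had an unadjusted p under 0.05, against 7.02% of all genes, which is a description because the chow difference is part of the average that selected them. The difference between diets was itself called for 190 of the 869, against 3.53% of all genes. The 218 genes of the narrower group, which were selected for a difference on each diet, had medians of 0.34 on chow and 0.47 on HFD, and the difference between diets was called for 11 of them.

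A shared sign is partly built into a large average, so its share is a description: 81.4% of called genes had it, against 50.7% of all genes. Across all genes the differences on chow and on HFD, which share no array, had r = -0.03 and rho = 0.02. Of the 2331 genes called on HFD, 1263 (54.2%) had the same sign on chow and 1068 the opposite sign. With an unadjusted p under 0.05 on chow in addition, 194 kept the sign and 129 reversed it. KO and WT arrays did not overlap on either diet in the same direction for 607 genes (2.74%), and in opposite directions for 447 (2.02%).

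**Figure D1:**
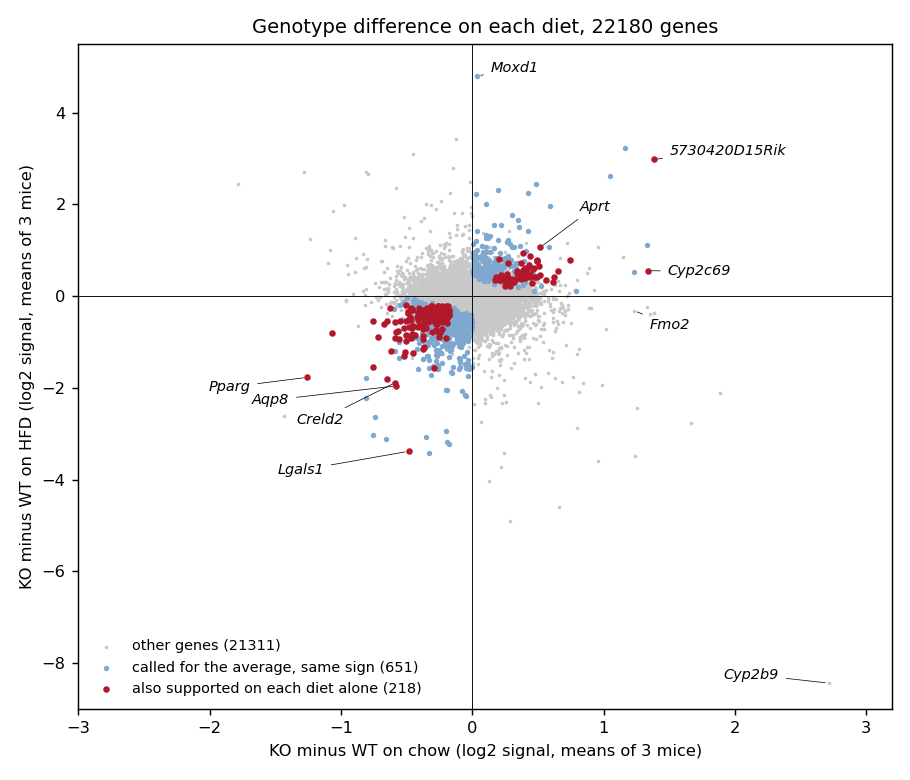
KO minus WT log2 difference of each of 22180 genes on chow (horizontal axis) and on HFD (vertical axis), with each point 1 gene and each value a difference of means of 3 mice. The 218 red genes lie at the upper right or lower left, away from both axes, the other 651 called genes of the same sign (blue) lie nearer the vertical axis, and Cyp2b9 (2.72 on chow, -8.44 on HFD) shows the opposite-sign pattern.

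The strictest test required each diet alone to support the same direction, using the larger of the chow and HFD p values, and 0 of 22180 genes passed it in limma. The smallest unadjusted p was 0.000114, and 328 genes (1.48%) had an unadjusted p under 0.05, 106 higher and 222 lower in KO. With opposite signs 247 genes (1.11%) had an unadjusted p under 0.05 on each diet. A model with genotype and diet but no interaction, which counts a difference between diets as error, called 94 genes (0.424%), 32 higher and 62 lower, all with the same sign on both diets. Of these 94, 85 belonged to the 218 genes, which is 90.4% of the 94 and 39.0% of the 218. Just inside the call of the average lay Tnfrsf19 (-0.40, adjusted p just under 0.05) and just outside it Inf2 (-0.33, adjusted p = 0.0501).

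The counts leaned on single arrays. Without KO chow 1 the same-sign genes numbered 146 higher and 371 lower, and without WT HFD 3 they numbered 162 and 383. Called with the same sign whichever array was left out were 402 of the 869 genes. Without WT chow 1 the narrower group held 114 higher genes, and 78 of its 218 genes stayed in it whichever array was left out.

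Genes of nitrogen and amino acid metabolism stood among the rises. Asl, which encodes argininosuccinate lyase, the urea cycle enzyme that releases arginine, rose by 0.54 ± 0.07 (SE) on average (limma adjusted p = 0.00136), with 0.47 on chow and 0.62 on HFD. For Asl, chow-fed WT livers read 12.81, 12.54 and 12.53 against 13.10, 13.14 and 13.05 for KO, and HFD-fed WT livers 12.10, 12.03 and 11.98 against 12.53, 12.80 and 12.64 for KO. Every KO liver lay above every WT liver of its diet, which the narrower group required, and WT on HFD was lowest of the 4 groups. Cth, the gene of cystathionine gamma-lyase, which makes cysteine from cystathionine, rose by 0.53 ± 0.08 (adjusted p = 0.00274). WT Cth stood at 12.80, 12.53 and 12.55 on chow and at 12.10, 12.10 and 12.14 on HFD, while KO Cth stood at 13.16, 13.14 and 12.96 and at 12.84, 12.79 and 12.51. The groups were ordered as for Asl, and no overlap within a diet was again a condition of selection.

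The other genes of the urea cycle were then read as a group of 9, chosen after their values were seen. Beside Asl, 3 rose and belonged to the 218 genes: Cps1 (carbamoyl phosphate synthetase, the entry step) by 0.26 ± 0.05, Arg1 (arginase, the last step) by 0.34 ± 0.07 and Slc25a15 (the mitochondrial ornithine carrier) by 0.28 ± 0.06, with limma adjusted p of 0.0134, 0.0187 and 0.0148. Arg1 was no longer called without KO chow 2 (adjusted p = 0.0508). The remaining 5 did not pass: the averages were 0.03 for Nags, -0.11 for Otc, -0.05 for Ass1, 0.20 for Slc25a13 and 0.29 for Slc25a2. So 4 of 9 rose and 0 fell, against 1.45% and 3.36% of all genes called in those directions. The chow arrays gave Cps1 13.73, 13.60 and 13.60 for WT against 13.85, 13.82 and 13.78 for KO, and the HFD arrays 13.44, 13.41 and 13.37 against 13.74, 13.77 and 13.79. KO livers were thus nearly level between diets, while WT livers were lower on HFD. Aass, which starts lysine breakdown, rose by 0.48 ± 0.08 (adjusted p = 0.00755), and Slc25a12, a mitochondrial aspartate and glutamate carrier, by 0.42 ± 0.07 (adjusted p = 0.00693). Both were picked after their values were seen.

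Aprt, the salvage enzyme that turns adenine into AMP, rose by 0.79 ± 0.08 (limma adjusted p = 0.000291), by 0.52 on chow and 1.07 on HFD. For Aprt, chow-fed WT livers read 9.64, 9.43 and 9.54 against 10.29, 10 and 9.88 for KO, and HFD-fed WT livers 8.80, 8.66 and 8.67 against 9.79, 9.87 and 9.67 for KO. KO livers on HFD thus lay above even the WT livers on chow. Urad, an enzyme of uric acid breakdown picked after its values were seen, rose by 0.55 ± 0.06 (adjusted p = 0.000696). Idh3a, the catalytic subunit of the mitochondrial NAD-dependent isocitrate dehydrogenase, rose by 0.60 ± 0.11 (adjusted p = 0.0085), with 0.65 on chow and 0.55 on HFD. Its signals ran from 8.55 to 9 in WT and from 9.40 to 9.49 in KO on chow, and from 8.73 to 8.92 in WT and from 8.99 to 9.61 in KO on HFD.

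**Figure D2:**
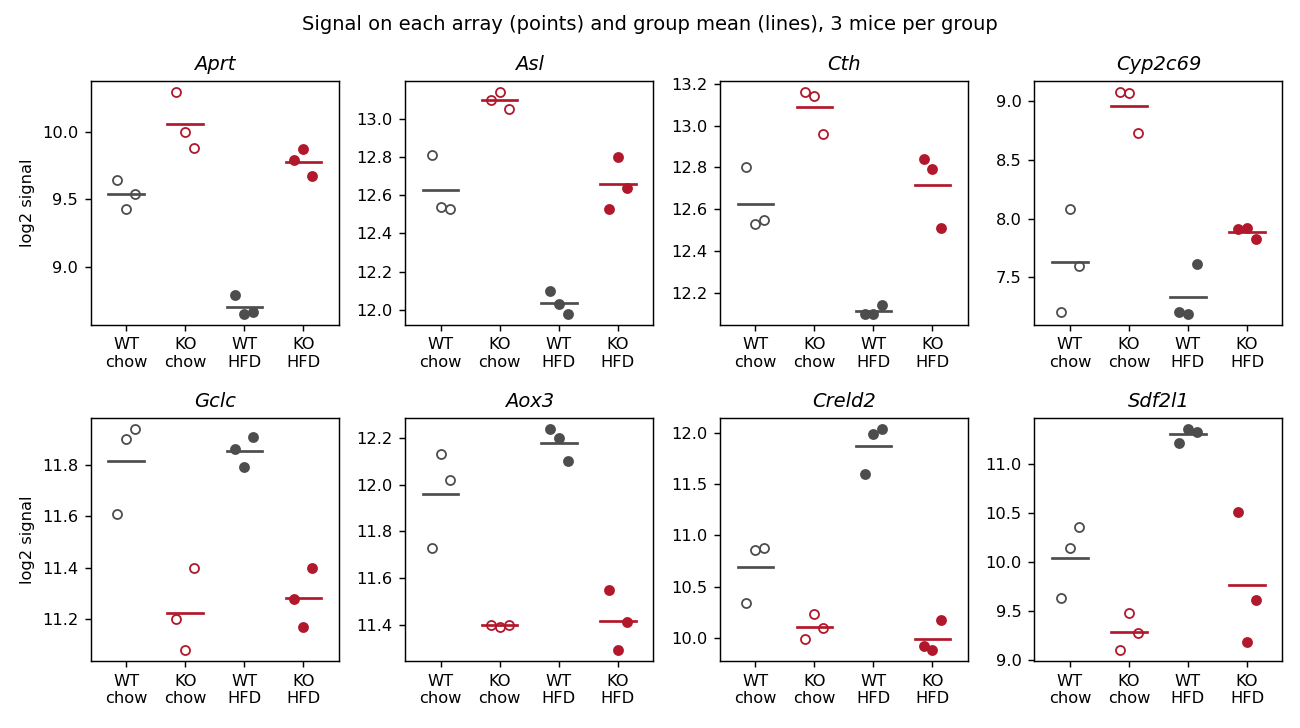
Log2 signal on every array (points) with the mean of 3 mice (lines) for 4 genes higher and 4 genes lower in KO on both diets, grey for WT and red for KO, open for chow and filled for HFD, each panel with its own vertical axis. KO and WT points do not overlap within either diet in any panel, which was a condition of the narrower group these genes come from. Aox3 and Gclc are nearly level between the diets within each genotype.

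The rise on chow was largest, among named genes of the narrower group, for Cyp2c69, a cytochrome P450 of the Cyp2c family. It was 1.34 on chow and 0.56 on HFD, with an average of 0.95 ± 0.14 (limma adjusted p = 0.00274). WT Cyp2c69 stood at 7.20, 8.08 and 7.60 on chow and at 7.20, 7.19 and 7.61 on HFD, while KO Cyp2c69 stood at 9.08, 9.07 and 8.73 and at 7.91, 7.92 and 7.83. The KO livers on chow stood above all other livers, and KO on HFD overlapped WT on chow but not WT on HFD. Cyp2c genes are close copies of each other, and the probe set may read more than 1 of them.

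The remaining rises that the naming rule selected were of mixed function, and each belonged to the 218 genes. Camk1d, a calcium- and calmodulin-dependent kinase, was higher by 0.49 on chow and 0.77 on HFD, and Tmtc2, an ER membrane protein, by 0.49 and 0.76. Pros1, the anticoagulant protein S made by hepatocytes, differed by 0.52 and 0.47. Retreg1, an ER-phagy receptor, differed by 0.63 and 0.42, Abhd2, a serine hydrolase, by 0.44 and 0.87, and Adam23, a membrane protein of the disintegrin family, by 0.43 and 0.68. Pdlim1, which binds actin filaments through alpha-actinin, differed by 0.44 and 0.49. The limma adjusted p of their averages ran from 0.000689 for Tmtc2 to 0.0149 for Pdlim1, and each of these 7 calls held whichever array was left out. The plot of the 24 selected genes shows each pair of differences with its error.

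**Figure D3:**
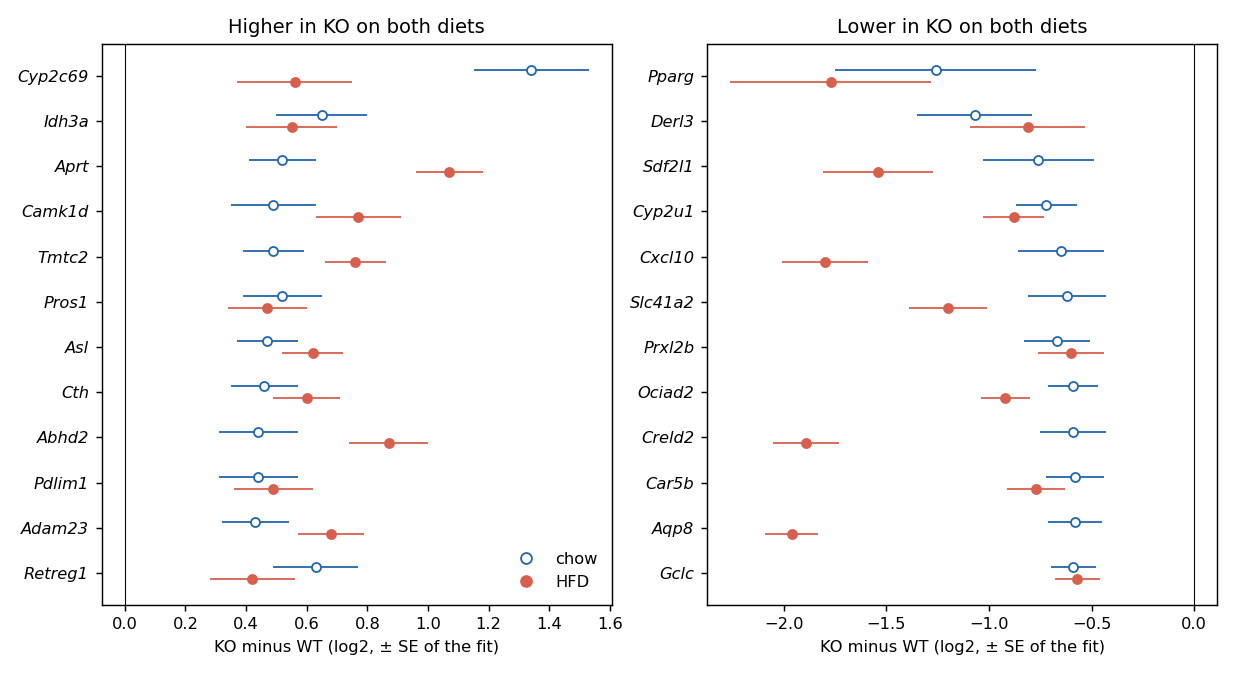
KO minus WT log2 difference on chow (open blue) and on HFD (filled red) with the SE of the fit, for the 12 genes higher and 12 lower in KO with the largest smaller-of-both-diets difference among the 218 genes. Cyp2c69, Idh3a, Pros1, Retreg1, Derl3, Prxl2b and Gclc differ more on chow, while Creld2 and Aqp8 differ by -0.59 and -0.58 on chow against -1.89 and -1.96 on HFD.

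The largest rise of the 218 genes, on chow and on HFD, belonged to an unnamed transcript, 5730420D15Rik, which lies outside the naming rule and was picked after its values were seen. It was higher by 1.38 on chow and 2.98 on HFD, with an average of 2.18 ± 0.17 (limma adjusted p = 6.76e-05), and it had the smallest p of the test on both diets. The chow arrays gave 5730420D15Rik 7.86, 7.07 and 7.93 for WT against 9.32, 8.91 and 8.77 for KO, and the HFD arrays 5.84, 5.51 and 5.84 against 9.06, 8.82 and 8.26. KO livers kept a similar level on both diets and WT livers were lower on HFD. The difference between diets was called (1.60, adjusted p = 0.0279).

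Among the genes lower in KO were 12 of 21 measured genes of protein folding in the ER. Promoter sequence is shown for 4 folding genes called lower that held the ER stress element, a known response element of the unfolded protein response. The element also stood in the promoters of Syvn1, which was called lower, and of Calr, Canx, Dnajc3 and Hsp90b1, which were not called. The element was searched as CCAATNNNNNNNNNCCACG on both strands of the 250 bases before each RefSeq gene start (GRCm38.p6), and its occurrence is printed in capitals. In Creld2 and Derl3 it lies on the other strand, so the capitals there read from CGTGG to ATTGG. All 4 windows are on the plus strand: Creld2 at chr15:88819396-88819645, Derl3 at chr10:75893148-75893397, Pdia6 at chr12:17266339-17266588 and Hspa5 at chr2:34771840-34772089.
Creld2: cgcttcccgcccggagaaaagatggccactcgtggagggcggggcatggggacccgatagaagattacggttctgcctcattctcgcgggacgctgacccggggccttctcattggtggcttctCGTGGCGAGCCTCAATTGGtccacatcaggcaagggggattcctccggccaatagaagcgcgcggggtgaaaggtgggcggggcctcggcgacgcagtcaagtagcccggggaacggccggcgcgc
Derl3: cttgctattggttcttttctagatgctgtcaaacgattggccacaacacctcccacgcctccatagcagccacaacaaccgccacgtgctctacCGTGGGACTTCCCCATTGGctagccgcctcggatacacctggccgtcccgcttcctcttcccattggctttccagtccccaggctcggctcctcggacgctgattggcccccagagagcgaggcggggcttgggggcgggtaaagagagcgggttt
Pdia6: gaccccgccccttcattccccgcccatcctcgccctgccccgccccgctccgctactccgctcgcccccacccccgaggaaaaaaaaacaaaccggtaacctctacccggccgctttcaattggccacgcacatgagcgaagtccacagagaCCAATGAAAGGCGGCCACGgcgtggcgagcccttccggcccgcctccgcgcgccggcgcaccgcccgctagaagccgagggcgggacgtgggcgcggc
Hspa5: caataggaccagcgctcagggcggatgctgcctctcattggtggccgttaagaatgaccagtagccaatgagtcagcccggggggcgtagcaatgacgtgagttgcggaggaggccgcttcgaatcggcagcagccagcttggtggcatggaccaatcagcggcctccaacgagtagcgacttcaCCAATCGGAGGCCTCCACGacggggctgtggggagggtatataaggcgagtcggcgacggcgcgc

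The element occurred in 37 of 32851 promoter windows (0.113%) and in 27 of the 16990 tested genes with a window (0.159%). It occurred in 7 of the 508 same-sign genes lower in KO that had a window (1.38%) and in 1 of 195 higher (0.513%), which was Acacb. In the narrower group the shares were nearly equal, with 3 of 132 lower genes (2.27%) and 1 of 47 higher (2.13%). Of 18 listed folding genes with a window, 8 held it. Of these 8, 4 were called lower (Creld2, Hspa5, Pdia6 and Syvn1), and of the 10 without it, 6 were called lower (Sdf2l1, Dnajb9, Dnajb11, Sel1l, Eif2ak3 and Herpud1). A match is a description of letters and was not tested as a binding site.

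Creld2, an ER protein raised by the unfolded protein response, fell by 1.24 ± 0.11 (limma adjusted p = 0.000168). For Creld2, chow-fed WT livers read 10.34, 10.86 and 10.88 against 9.99, 10.23 and 10.10 for KO, and HFD-fed WT livers 11.60, 11.99 and 12.04 against 9.92, 9.88 and 10.18 for KO. WT livers were higher on HFD than on chow, KO livers were level, and no KO array overlapped a WT array. Sdf2l1, part of an ER chaperone complex, fell by 1.15 ± 0.19 (adjusted p = 0.0064). WT Sdf2l1 stood at 9.63, 10.14 and 10.36 on chow and at 11.22, 11.36 and 11.33 on HFD, while KO Sdf2l1 stood at 9.10, 9.48 and 9.28 and at 10.51, 9.18 and 9.61. KO on HFD spread widely, and the lack of overlap within a diet was a condition of selection. Derl3, a derlin that helps export misfolded proteins for degradation, differed by -1.07 on chow and -0.81 on HFD (average -0.94 ± 0.20, adjusted p = 0.0194) and was not called without KO chow 1 or WT HFD 3 (adjusted p up to 0.0554).

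Of 21 measured genes of the unfolded protein response, 12 fell and 0 rose, against 3.36% and 1.45% of all genes. With the same sign on both diets 11 of them fell, against 2.79% of all genes. Their median average difference was -0.39 (-0.11 on chow and -0.66 on HFD), against -0.001 over all genes. Beside Creld2 and Sdf2l1, Pdia6, a disulfide isomerase, belonged to the 218 genes (-0.54 ± 0.09, limma adjusted p = 0.00547). So 3 of the 21 were lower in that group, against 0.699% of all genes. The chaperone Hyou1 fell by 0.87 ± 0.10, the ubiquitin ligase Syvn1 by 0.79 ± 0.12, the secreted factor Manf by 0.75 ± 0.13, the chaperone Hspa5 (BiP) by 0.68 ± 0.12, its cofactor Dnajb9 by 0.62 ± 0.11, Sel1l, the partner of Syvn1, by 0.51 ± 0.08, and the chaperone cofactor Dnajb11 by 0.39 ± 0.07 (adjusted p 0.00075 to 0.0093). For these, arrays overlapped between KO and WT on chow or the chow p was over 0.05, and the differences on chow were -0.11 to -0.42 against -0.66 to -1.36 on HFD. Eif2ak3, the stress sensor PERK (-0.07 and -0.66, average -0.36 ± 0.09), lost its call without any of 10 arrays (adjusted p up to 0.0969). Herpud1 had opposite signs (0.19 on chow, -1.22 on HFD) and also lost its call without any of 10 (up to 0.107). Outside the list, and picked after their values were seen, Mlec, a carbohydrate-binding ER lectin, fell by 0.42 ± 0.06, Ostc, a subunit of the oligosaccharyltransferase, by 0.52 ± 0.06 and Txndc5, a disulfide isomerase, by 0.28 ± 0.05, all among the 218 genes. Serpinh1, the collagen chaperone Hsp47, fell by 0.52 ± 0.08 (adjusted p = 0.00402). It was the 1 called of 13 measured heat shock genes, whose median average was 0.03, and 4.81% of all genes were called.

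**Figure D4:**
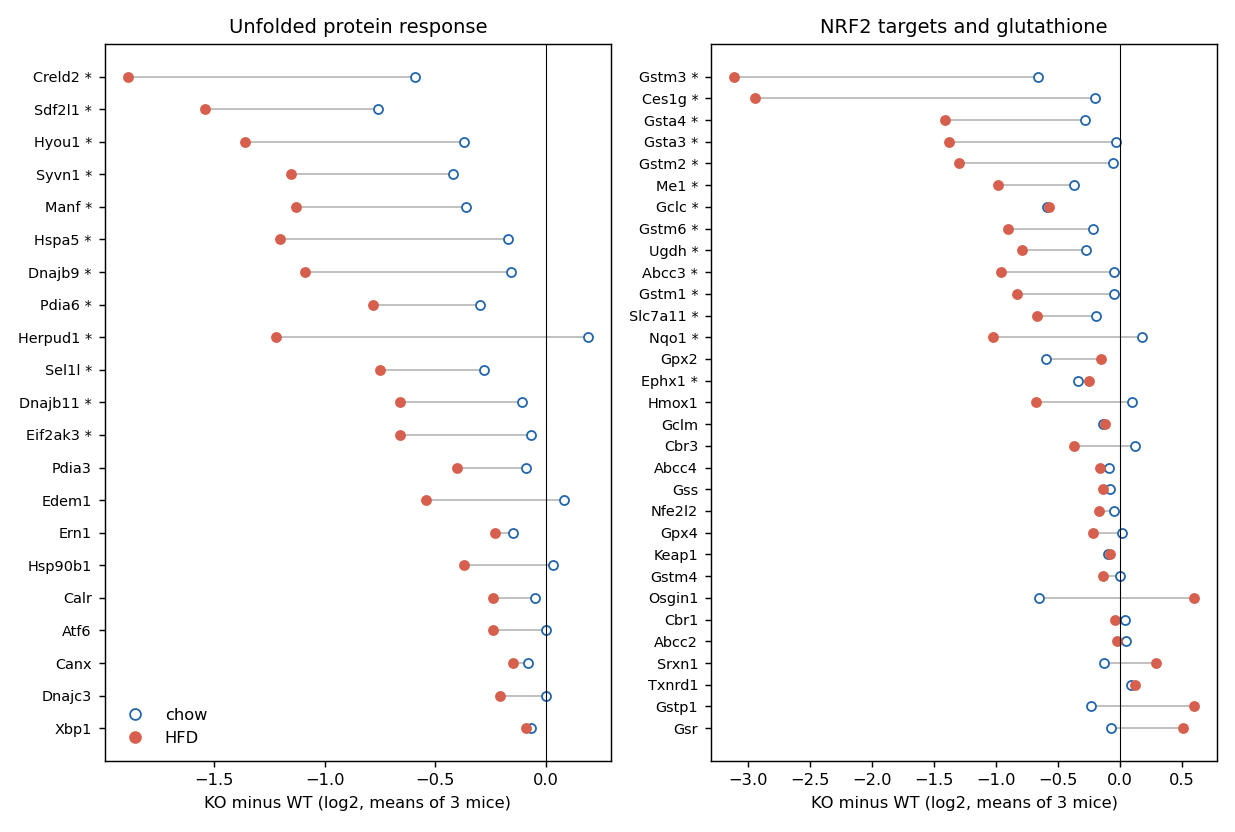
KO minus WT log2 difference on chow (open blue) and on HFD (filled red), means of 3 mice, for every measured gene of the unfolded protein response (21) and of NRF2 targets and glutathione metabolism (31), with a star where the average was called. Every starred gene except Herpud1 and Nqo1 is below 0 on both diets, and of the starred genes Gclc and Ephx1 differ least between the diets.

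Gclc, the catalytic subunit of the rate-limiting enzyme of glutathione synthesis, fell by 0.58 ± 0.08 (limma adjusted p = 0.00215), with -0.59 on chow and -0.57 on HFD. The chow arrays gave Gclc 11.61, 11.90 and 11.94 for WT against 11.20, 11.08 and 11.40 for KO, and the HFD arrays 11.86, 11.79 and 11.91 against 11.28, 11.17 and 11.40. All 6 KO livers lay below all 6 WT livers, whatever the diet. The same held for Aox3, an aldehyde oxidase, which fell by 0.66 ± 0.08 (adjusted p = 0.000696). For Aox3, chow-fed WT livers read 11.73, 12.13 and 12.02 against 11.40, 11.39 and 11.40 for KO, and HFD-fed WT livers 12.24, 12.20 and 12.10 against 11.55, 11.29 and 11.41 for KO. Its neighbour Aox1 fell by 0.75 ± 0.11 (adjusted p = 0.00244), with -0.56 on chow and -0.94 on HFD. Ephx1, the microsomal epoxide hydrolase, fell by 0.30 ± 0.06 (adjusted p = 0.0139), with -0.34 and -0.25.

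Of 31 measured NRF2 target and glutathione genes, 14 fell and 0 rose, against 3.36% and 1.45% of all genes. With the same sign 13 fell, against 2.79%, and the median average was -0.29 (-0.09 on chow and -0.25 on HFD). Of these 13, Gclc and Ephx1 belonged to the 218 genes, so 2 of the 31 were lower there, against 0.699% of all genes. Of the others, Gstm3, a glutathione S-transferase, differed by -0.66 on chow and -3.11 on HFD, Gsta4 by -0.28 and -1.41, Gsta3 by -0.03 and -1.38, and Ugdh, which makes UDP-glucuronate, by -0.27 and -0.79. Slc7a11, the cystine transporter, fell by 0.43 ± 0.07 (limma adjusted p = 0.00499), but it was dim (mean signal 4.29) and its second, dimmer probe set (2.71) averaged 0.07. Me1, the malic enzyme, lost its call without any of 8 arrays (adjusted p up to 0.0665), and Nqo1 (0.18 on chow, -1.02 on HFD) without any of 7 (up to 0.0711).

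Of 51 measured drug metabolism genes, 5 rose and 12 fell (1.45% and 3.36% over all genes), and 3 and 6 of these had the same sign (1.13% and 2.79%). Cyp2u1, a P450 that hydroxylates long-chain fatty acids, fell by 0.80 ± 0.11 (limma adjusted p = 0.00196). WT Cyp2u1 stood at 9.55, 9.63 and 9.37 on chow and at 10.45, 10.21 and 10.43 on HFD, while KO Cyp2u1 stood at 8.89, 9.06 and 8.43 and at 9.5, 9.65 and 9.28. Both genotypes were higher on HFD, with KO below WT by 0.72 on chow and 0.88 on HFD. Cyp2a5 and its near-identical copy Cyp2a4, which the probe sets may not separate, had averages of -1.68 ± 0.08 and -1.70 ± 0.11, with -3.17 and -3.22 on HFD against -0.19 and -0.18 on chow. Cyp2c54 was higher by 0.40 on chow and 0.39 on HFD (average 0.40 ± 0.10, adjusted p = 0.0495) and lost the call without any of 10 arrays (up to 0.115). Picked after their values were seen, Adh4, an alcohol dehydrogenase, fell by 0.55 ± 0.11, with -0.55 on each diet, and the carboxylesterase genes Ces1e and Ces1f, members of a family of close copies, by 0.76 ± 0.09 and 0.67 ± 0.14. Ces1f was not called without WT HFD 3 or KO HFD 3 (adjusted p up to 0.0569). Some other Ces1 genes read beside them were not called whichever array was left out (adjusted p from 0.109 to 0.619). Another was called each time but never belonged to the narrower group.

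Lipid genes moved in mixed directions. Pparg, the nuclear receptor that drives fat storage, differed by -1.26 on chow and -1.77 on HFD (average -1.51 ± 0.34, limma adjusted p = 0.0273). The chow arrays gave Pparg 9.16, 8.71 and 8.74 for WT against 8.39, 6.16 and 8.29 for KO, and the HFD arrays 9.60, 9.75 and 10 against 7.27, 8.44 and 8.33. KO chow 2 was far below the other KO livers. The lack of overlap within a diet was a condition of the narrower group, to which Pparg belonged. The call was lost without WT chow 1, WT chow 3, any WT HFD array or KO HFD 1 (adjusted p up to 0.0693 without WT HFD 3). Fitm1, which helps lipid droplets form, differed by -0.52 and -1.30 (average -0.91 ± 0.14, adjusted p = 0.00343), although its dimmer second probe set averaged -0.10.

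Fatty acid and triglyceride synthesis had 27 measured genes, of which 2 rose and 8 fell (1.45% and 3.36% over all genes), and 2 and 5 of these had the same sign (1.13% and 2.79%). Srebf1, the transcription factor of lipogenesis, fell by 0.61 ± 0.09 (limma adjusted p = 0.0029), with -0.31 on chow and -0.91 on HFD. Mogat1, a monoacylglycerol acyltransferase, fell by 1.00 ± 0.14 (adjusted p = 0.00259), with -0.41 and -1.58. Scd1, the stearoyl-CoA desaturase, differed by -0.20 and -2.05 and was not called without KO chow 1 (adjusted p = 0.051). Fasn, the fatty acid synthase, was not called (-0.36 ± 0.10, adjusted p = 0.067). Acacb, the acetyl-CoA carboxylase at mitochondria, rose by 0.48 ± 0.11 (adjusted p = 0.0229), with 0.39 and 0.58, and lost the call without any of 8 arrays (up to 0.0583). The lipid droplet protein Plin5 rose by 0.46 ± 0.10 (adjusted p = 0.0188), with 0.40 and 0.53, and the lipase Pnpla2 by 0.46 ± 0.10, a call lost without KO chow 1 (adjusted p = 0.0502). Of 33 measured fatty acid oxidation genes, 4 rose and 1 fell (1.45% and 3.36% over all genes). With the same sign 1 rose and 1 fell, close to the 1.13% and 2.79% of all genes: Cpt1a, which admits fatty acids to mitochondria, rose (0.14 on chow and 0.51 on HFD), and Vnn1, a pantetheinase, fell by 0.36 ± 0.07, with -0.47 and -0.26. Ppargc1a, a coactivator of mitochondrial genes, rose by 0.73 ± 0.13 (0.27 and 1.19, adjusted p = 0.00757).

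Other falls that the rule selected were in transport, mitochondrial and signalling genes. Aqp8, a channel for water and small solutes, fell by 1.27 ± 0.09 (limma adjusted p = 3.11e-05). For Aqp8, chow-fed WT livers read 8.40, 8.39 and 8.30 against 7.90, 7.91 and 7.55 for KO, and HFD-fed WT livers 10.20, 10.21 and 10.38 against 8.52, 8.31 and 8.08 for KO. WT livers on HFD were highest and KO livers on HFD stood at the level of WT livers on chow. Ociad2, a mitochondrial membrane protein, fell by 0.75 ± 0.08 (adjusted p = 0.000505), Slc41a2, a magnesium transporter, by 0.91 ± 0.14, Car5b, a mitochondrial carbonic anhydrase, by 0.68 ± 0.10 and Prxl2b, a peroxiredoxin-like enzyme of prostaglandin F synthesis, by 0.64 ± 0.11. Each of these 5 calls held whichever array was left out. Picked after their values were seen, Sucnr1, the succinate receptor, fell by 0.69 ± 0.11, Adra1b, the alpha-1B adrenergic receptor, by 0.74 ± 0.14 and Stom, the membrane protein stomatin, by 0.62 ± 0.06.

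Cxcl10, an interferon-induced chemokine, fell by 1.23 ± 0.15 (limma adjusted p = 0.00106). WT Cxcl10 stood at 7.47, 7.20 and 7.38 on chow and at 8.39, 8.20 and 8.31 on HFD, while KO Cxcl10 stood at 6.53, 6.68 and 6.90 and at 6.88, 6.75 and 5.86. All 6 KO livers lay below all 6 WT livers. Of 26 measured interferon response genes, 7 fell with the same sign and 0 rose (2.79% and 1.13% over all genes), and the median average was -0.30 (-0.05 on chow and -0.53 on HFD). Among them Ifit1 differed by -0.30 on chow and -1.53 on HFD, Rsad2 (viperin) by -0.29 and -1.07, and Oasl1 by -0.24 and -0.84, and on chow none of these 3 had an unadjusted p under 0.05. Stat2, a transducer of interferon signals, was the 1 member among the 218 genes (-0.41 and -0.26), against 0.699% of all genes lower there. Its call was lost without any of 6 arrays (adjusted p up to 0.074). Trim21 and Slfn2, both picked after their values were seen, fell by 0.40 ± 0.08 and 0.43 ± 0.08. Of 25 measured cytokine and chemokine genes, 4 fell with the same sign and 0 rose (2.79% and 1.13% over all genes). Among them Ccl2 (-0.27 and -1.28) and Ccl3 (-0.26 and -1.51) had no unadjusted p under 0.05 on chow.

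Lgals1, which encodes galectin-1, was the largest fall of the narrower group (-0.49 on chow, -3.38 on HFD, average -1.93 ± 0.12, limma adjusted p = 1.32e-05). The chow arrays gave Lgals1 9.18, 9.37 and 9.47 for WT against 8.74, 8.69 and 9.14 for KO, and the HFD arrays 11.68, 11.78 and 11.88 against 8.36, 8.76 and 8.07. The WT livers on HFD stood far above the other 9. Gbp10, an interferon-induced guanylate-binding protein, had the same shape, with -0.35 on chow and -3.07 on HFD. The mean log2 signal of 11 lipid-associated macrophage markers was 6.43 to 6.70 in WT and 6.4 to 6.5 in KO on chow, which overlap. On HFD it was 7.04 to 7.38 in WT and 6.74 to 6.82 in KO. Of these markers 1 was called higher and 4 lower (1.45% and 3.36% over all genes), 2 of the latter with the same sign (2.79%). Of 15 Kupffer cell and macrophage markers 0 were called higher and 1 lower, with opposite signs on the diets, against 1.45% and 3.36% of all genes. The mean of 16 stellate cell and fibroblast markers was 7.92 to 8.14 in WT and 8.10 to 8.29 in KO on chow. On HFD it was 8.42 to 8.72 in WT and 8.10 to 8.22 in KO. Of these 16, 1 was called higher and 5 lower, against 1.45% and 3.36% of all genes. With the same sign 1 rose and 1 fell (1.13% and 2.79% over all genes), and 4 were called with opposite signs. The part of these cells in the falls was not tested.

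Of 27 measured cell cycle genes, 8 fell and 0 rose (3.36% and 1.45% over all genes), 7 with the same sign (2.79%), and the median average was -0.26 (-0.09 on chow and -0.46 on HFD). Cdk1, the mitotic kinase, differed by -0.21 on chow and -0.94 on HFD, Ccna2, the cyclin A2 gene, by -0.21 and -0.73, and the proliferation marker Mki67 by -0.08 and -0.84. Top2a, DNA topoisomerase II alpha, was more even (-0.31 and -0.50) but lost its call without any of 8 arrays (limma adjusted p up to 0.0769). Picked after its values were seen, Spc25, a subunit of the kinetochore complex that holds microtubules, fell by 0.65 ± 0.08 (adjusted p = 0.00122). For Spc25, chow-fed WT livers read 7.30, 7.14 and 7.28 against 6.57, 6.25 and 6.63 for KO, and HFD-fed WT livers 7.02, 7.02 and 7.07 against 6.37, 6.45 and 6.70 for KO. All 6 KO livers again lay below all 6 WT livers. Cenpn, a centromere protein, fell by 0.39 ± 0.08, called without 8 of 12 arrays in turn and lost without WT chow 3, KO chow 1, WT HFD 2 or WT HFD 3 (adjusted p up to 0.0598). Tubb5, a beta-tubulin whose second probe set averaged -0.34, fell by 0.31 ± 0.07 and lost the call without any of 7 arrays (up to 0.0631). Some other tubulin genes read beside it were not called whichever array was left out (adjusted p from 0.23 to 0.996). Cenpn and Tubb5 were also picked after their values were seen.

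Of 25 measured genes of growth hormone signalling, 4 rose with the same sign and 0 fell (1.13% and 2.79% over all genes). None belonged to the 218 genes, which are 0.983% of all genes. Socs2, a feedback inhibitor of that signal, differed by 0.43 on chow and 2.25 on HFD (average 1.34 ± 0.16, limma adjusted p = 0.00077), and its dimmer second probe set averaged 0.52. WT Socs2 stood at 10.68, 10.55 and 11.13 on chow and at 8.24, 8.64 and 9.25 on HFD, while KO Socs2 stood at 11.47, 11.07 and 11.11 and at 10.99, 11.02 and 10.86. WT livers on HFD lay below the other 9, and WT and KO livers on chow overlapped. Igfbp1 and Igfbp2, binding proteins of insulin-like growth factors, differed by 0.03 and 0.10 on chow against 2.22 and 2.02 on HFD. Cux2, a transcription factor of female liver, differed by 0.79 on chow and 0.12 on HFD (average 0.46 ± 0.06, adjusted p = 0.00202).

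Of 31 measured female-biased liver genes, 6 rose and 10 fell (1.45% and 3.36% over all genes). With the same sign 5 rose and 3 fell (1.13% and 2.79% over all genes). The median difference of the female-biased genes was 0.29 on chow and -0.18 on HFD. Of 30 measured male-biased genes, 8 rose and 3 fell, and 2 and 3 had the same sign, against those same shares of all genes. Their median difference was -0.31 on chow and 0.79 on HFD. Trim24, a coregulator that is female-biased in mouse liver, rose by 0.46 ± 0.10 (limma adjusted p = 0.0162), with 0.61 and 0.31, and with Cyp2c69 was among the 218 genes. Nipal1, a magnesium transporter, was higher by 0.43 and 1.43. Among the male-biased genes, Cyp2u1 and Fitm1 were among the 218 genes, and Ces2e, a carboxylesterase, fell by 0.90 ± 0.10, with -0.26 and -1.55. Moxd1, a monooxygenase-like gene, had the largest called average rise of a named gene (2.42 ± 0.20), yet its chow difference was 0.04 against 4.80 on HFD. Cyp7b1 (-0.79 on chow, 2.66 on HFD) and the complement gene C6 (-0.36 and 2.00) were called with opposite signs.

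Among the same-sign genes with the largest averages, Clec2h, a C-type lectin, differed by -0.76 and -3.02, Cntnap1, a contactin-associated protein, by 0.59 and 1.98, and Cgref1, a secreted growth regulator, by 0.48 and 2.45. Cgref1 was lost without WT chow 2, KO chow 1, KO chow 2 or WT HFD 1 (limma adjusted p up to 0.0551). Serpina7, which encodes thyroxine-binding globulin, differed by -0.33 and -3.42 and was not called when any of 9 arrays was left out (up to 0.0735). Lepr, the leptin receptor, differed by 1.05 and 2.63, and its call held only when WT chow 1 was the array left out (adjusted p up to 0.108). Lepr signals spread from 7.21 to 10.46 in WT and from 9.09 to 10.35 in KO on chow, which overlap, and from 6.27 to 6.42 in WT and from 8.45 to 9.97 in KO on HFD.

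Called averages with opposite signs numbered 198 (0.893%), 70 higher and 128 lower. The 3 largest were Cyp2b9 (2.72 on chow, -8.44 on HFD), its paralog Cyp2b13 (0.29 and -4.89) and the hepcidin gene Hamp2 (0.66 and -4.59). Cyp2b9 lost the call of its average without any of 7 arrays (limma adjusted p up to 0.0703 without KO HFD 2). Fmo2, a flavin monooxygenase (1.23 and -0.31), lost it without any of 9 (up to 0.0693). Cd36, a fatty acid transporter (0.10 and -2.24), and Fgf21, a hepatic hormone (-0.01 and 1.95), were also called with opposite signs, and Fgf21 lost the call without WT chow 2, KO chow 3, WT HFD 1 or WT HFD 3 (up to 0.0564). The averages of 4 further genes with opposite signs were not called: Nt5dc2 (-0.57 and 0.50), Spon2 (-0.89 and 0.84), Cspg5 (-1.1 and 0.73) and Acaa1b (-0.54 and 0.23). Cyp7a1, the rate-limiting enzyme of bile acid synthesis, was not called either (-0.12 and 0.79, average adjusted p = 0.334).

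Among Ahnak and the 10 genes on either side of it in the RefSeq gene order, 18 were measured and 1 was called, against 4.81% of all genes: B3gat3, a glucuronosyltransferase of proteoglycan synthesis, higher by 0.08 on chow and 0.46 on HFD (average 0.27 ± 0.06, limma adjusted p = 0.0326), which lost its call when any of 10 arrays was left out (up to 0.0884). Of 19 measured genes of Ahnak partners and relatives, 2 fell with the same sign and 0 rose, against 2.79% and 1.13% of all genes, among them Anxa2, an annexin that binds Ahnak (-0.27 and -1.31, average -0.79 ± 0.12, adjusted p = 0.00361). Nnt, the mitochondrial transhydrogenase that differs among C57BL/6 substrains, was not called (-0.23 and -0.79, average -0.51 ± 0.21, adjusted p = 0.218). Of 28 measured genes of TGF beta and BMP signalling, 2 rose and 0 fell, 1 with the same sign, against 1.45% higher, 3.36% lower and 1.13% same-sign higher over all genes.

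**Figure D5:**
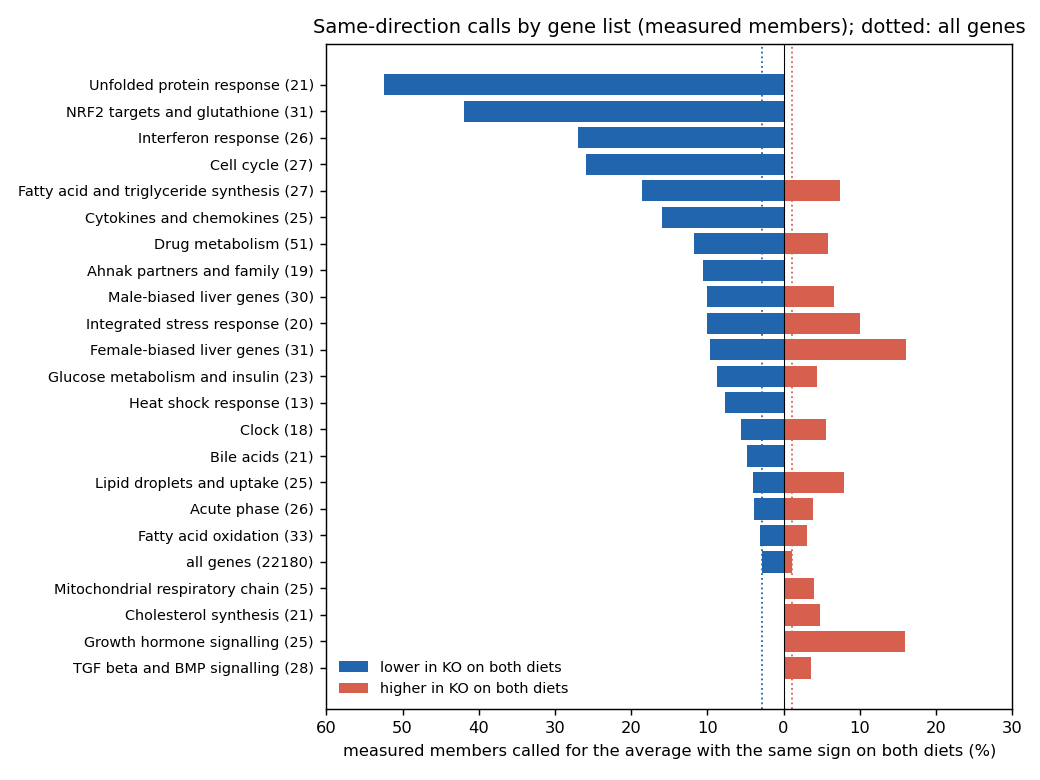
Percent of the measured members (number in brackets) of each gene list, without the urea cycle group, the Ahnak neighbours and the cell type markers, that were called for the average with the same sign on both diets, lower in KO to the left (blue) and higher to the right (red), both from 0, with dotted lines at the shares of all genes (2.79% lower, 1.13% higher). The unfolded protein response and NRF2 lists reach farthest to the left of the lists plotted, and the female-biased and growth hormone lists farthest to the right.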

How the data were processed

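RNA of 12 mouse livers was labelled with an Affymetrix kit and hybridised to 12 arrays. The deposited values are log2 signals per probe set. Per the submitters' processing notes the authors used oligo. No source used here states its version, background correction or normalization. The table held 41345 probe sets, with values from 1.40 to 14.36 and none missing. Of these, 23521 carried 1 gene symbol (23328 matched to RefSeq), 1814 several and 16010 none. Genes were read from probe sets with 1 symbol. Where a gene had more than 1 (1082 genes), the probe set with the highest mean signal was used, which left 22180 genes.

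A model with a mean for each of the 4 groups was fitted to all genes with limma 3.58.1 in R 4.3.3, and p values were adjusted by Benjamini-Hochberg over all genes. Contrasts were KO minus WT on each diet, their average and their difference. The test on both diets took the larger of the chow and HFD p values. The script was tested on simulated data. Named genes were the 12 rises and 12 falls of the narrower group with the largest smaller-of-both-diets difference, the 5 rises and 5 falls with the largest averages, up to 3 of opposite sign, members of gene lists, neighbours of Ahnak and a set list, with gene models left out. The members and lists were chosen with earlier results of these data known. The narrower group and its alternatives were added after the data were seen. Replicates are biological per the series' design text, 1 per array, and precision is limited by the 3 arrays a group. Close gene copies (Cyp2a, Cyp2b, Cyp2c, Ces1, Gstm, Aox) may share probes.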

Additional observations from a re-analysis of the deposited data

Results flagged for a closer look

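The difference between the KO minus WT values of the diets (HFD minus chow, in log2, limma interaction) was called at an adjusted p under 0.05 for 40 of the 127 genes named, against 3.53% of all genes. Because the genes were named partly for large differences, the count is a description. The sign was the same on both diets for 26 of the 40, of which 25 differed more on HFD and 1, Cux2, more on chow (-0.67).

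Among ER folding genes with the same sign on both diets, the difference between diets was -1.30 for Creld2, -0.99 for Hyou1, -1.03 for Hspa5, -0.93 for Dnajb9 and -0.53 for Ostc. Among detoxification genes it was -2.46 for Gstm3, -1.13 for Gsta4, -1.36 for Gsta3, -0.77 for Ces1e, -1.28 for Ces2e, -2.98 for Cyp2a5 and -3.04 for Cyp2a4. Immune and cell surface genes gave -2.90 for Lgals1, -2.26 for Clec2h, -2.72 for Gbp10, -1.24 for Ccl3, -1.04 for Anxa2 and -1.38 for Aqp8. It was -1.17 for Mogat1 and -0.76 for Mki67. Of the rises, Moxd1 gave 4.76, Socs2 1.82, Igfbp1 2.20, Igfbp2 1.92 and 5730420D15Rik 1.60.

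With opposite signs on the diets, the difference was -11.16 for Cyp2b9, -5.18 for Cyp2b13, -5.26 for Hamp2, -1.41 for Herpud1, -1.20 for Nqo1, -1.55 for Fmo2 and -2.34 for Cd36. It was 1.96 for Fgf21, 0.78 for Acaa1b, 3.45 for Cyp7b1, 2.36 for C6, 1.07 for Nt5dc2, 1.73 for Spon2 and 1.82 for Cspg5.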

How the results depend on the processing

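Counts are given as higher and lower in KO, first for same-sign genes (251 and 618) and then for all called genes (321 and 746). The additive model gave 32 and 62 for both, and a model with no diet term gave 0 and 12 for both. Only genes above the median signal gave 402 and 524 higher. A 2-fold minimum gave 13 and 22, then 17 and 38, and left 1 and 6 genes of the narrower group. An adjusted p under 0.01 gave 79 and 222, then 103 and 258, and 29 and 73 in the narrower group. Without each of the 12 arrays in turn, same-sign genes ranged from 146 to 285 higher and 371 to 578 lower, called genes from 188 to 345 and 457 to 700, the narrower group from 45 to 114 and 104 to 171, and genes without overlap from 701 to 1148, where fewer arrays make overlap less likely. The test on both diets gave 0 genes in limma under each alternative run. Centring each array on its median raised the share of higher genes among same-sign calls from 28.9% to 34.7%. With the replicate number as a replicate block, 190 and 470 same-sign genes were called (633 of these 660 also without it) and the narrower group held 51 and 112. Deviations of same-numbered WT and KO arrays of the same diet correlated with r of -0.03 to 0.08. These values gave no sign of pairing by number but cannot exclude it. Of named genes, the average of Ass1, never called, ranged from -0.302 to 0.096 and turned sign to 0.026 without WT chow 1, 0.059 without WT chow 3, 0.096 without KO chow 3, 0.086 without KO HFD 2 and 0.078 without KO HFD 3. That of Spon2, never called, ranged from -0.084 to 0.036 and turned sign to 0.036 without WT chow 1, 0.013 without KO chow 2 and 0.004 without KO HFD 1. Of the 127 named genes, 76 had a weaker result than in the main fit under the additive model, 107 with no diet term and 7 with the replicate block. Genes not called in the main fit are not among the weaker ones merely for staying uncalled. The causes were not tested.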
